A study of Mus musculus with 21 samples.

Results

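The ubiquitin-specific proteases, the Usp genes, were followed through RNA sequencing of mouse MII oocytes and granulosa cells. Members were all genes whose symbol is Usp followed by a number alone, which gave 47 of 55335 gene identifiers, and the rule uses the symbol alone, although the family was taken up with earlier results of these data known. Genes such as Usp9x and Usp27x, whose symbols hold a further letter, are thus not ranked here and are counted with other deubiquitinases. The study asked how age changes ovarian cells and what follows the transplantation of human umbilical cord mesenchymal stem cells, sorted by their surface level of the receptor LRP1. Young ICR mice were 6 to 8 weeks old, and Aged ICR mice, 18 months old, received no cells. The 3 other groups were aged mice of the same strain that were examined 3 weeks after cells had been placed under the ovarian capsule. These cells were unsorted in Aged + Unsorted, sorted for high LRP1 in Aged + LRP1high and sorted for low LRP1 in Aged + LRP1low. Oocytes were sequenced in 3 Young, 2 Aged, 2 Aged + Unsorted, 3 Aged + LRP1high and 2 Aged + LRP1low libraries. Granulosa cells were sequenced in 1, 2, 1, 3 and 2 libraries of these groups, in the same order. The sources do not state whether the libraries of a group came from separate mice, so p-values measure the spread between libraries, and a fall in the number of cells of a type cannot be told apart in such bulk RNA from a fall in RNA per cell.

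Ubiquitin is a small protein that ligases attach to other proteins, singly or in chains, and that marks them for the proteasome, for sorting between membranes or for signalling. Ubiquitin-specific proteases are cysteine proteases, the largest family of deubiquitinases, that cut ubiquitin off again and so can save a protein from degradation or end a signal. An MII oocyte is close to silent in transcription and lives on stored maternal RNA, and ubiquitin-dependent turnover of proteins drives meiosis and the passage to the embryo. The values below are FPKM, fragments scaled to the length of the gene and to the size of the library, so levels can be set side by side between genes of a library. Between libraries the scale depends on the unit. Summed over the members, TPM, another deposited unit, was 643.6 beside an FPKM of 203.0 in oocyte Young replicate 2. In granulosa cell Aged replicate 1 these sums were 14.1 and 16.0. Differences and standard errors (SE) are on the scale of log2(FPKM + 1), which makes differences at low FPKM look small, and an exact 0 is written as listed at 0.

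Several libraries went against their labels. Aligned sequence, the only measure of depth that these values allow, was 0.278 to 3.40 gigabases in oocyte and 0.335 to 1.49 gigabases in granulosa cell libraries. The median FPKM of 10 oocyte markers was 0.892 in oocyte Young replicate 1, 11.6 in Aged replicate 1 and 5.02 and 7.77 in both Aged + LRP1low libraries, against 84.9 to 1001 in the other oocyte libraries. Zp2, a zona pellucida gene, was listed at 0 in Young replicate 1. The 1 granulosa cell library of Aged + Unsorted had an oocyte marker median of 799.7 and a granulosa marker median of 1.42. Granulosa markers had a median of 74.9 in the Young granulosa cell library and 21.4 in Aged + LRP1high replicate 3, and 0.0482 to 1.93 in the other 7, while luteal markers reached 518.6 in Aged + LRP1low replicate 1. Comparisons that rest on the 4 oocyte libraries with few oocyte markers are also given without them. Aged + LRP1low is excepted, as it has no other oocyte library. Where this leaves 1 Aged library, medians are given in place of counts.

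Most Usp genes were detected in most oocyte libraries. As a floor, the 95th percentile of 329 vomeronasal receptor genes, which neither cell type is known to use, was taken in each library. It was 0.132 to 7.33 FPKM in oocytes, at 7.33 in Aged replicate 1 and 5.38 and 5.32 in the Aged + LRP1low libraries, but at 1.45 in Young replicate 1, which also had few oocyte markers. Above it stood 28, 18 and 44 of the 47 members in Young, against 21 and 29 in Aged, 33 and 44 in Aged + Unsorted, 41, 33 and 28 in Aged + LRP1high, and 30 and 22 in Aged + LRP1low oocytes. The 3 Young libraries alone ranged from 18 to 44, and every other group lay within that range. Young replicate 2 listed 27 members at 0, and had the fewest genes of any kind at an FPKM of 1 or more among oocyte libraries, 3135. Aged + LRP1low oocytes had 47920 and 38934 such genes. In granulosa cells the members above the floor were 43 in Young, against 2 and 0 in Aged, 43 in Aged + Unsorted, 21, 18 and 26 in Aged + LRP1high, and 13 and 11 in Aged + LRP1low. Both Aged granulosa cell libraries had almost no Usp signal above the floor, and the summed FPKM of the 47 members was 16.0 and 15.6 there against 31.2 to 835.7 in the other 7. They also had the fewest genes of any kind at an FPKM of 1 or more, 2734 and 2089 against 4842 to 21463 in the other 7.

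**Figure D1:**
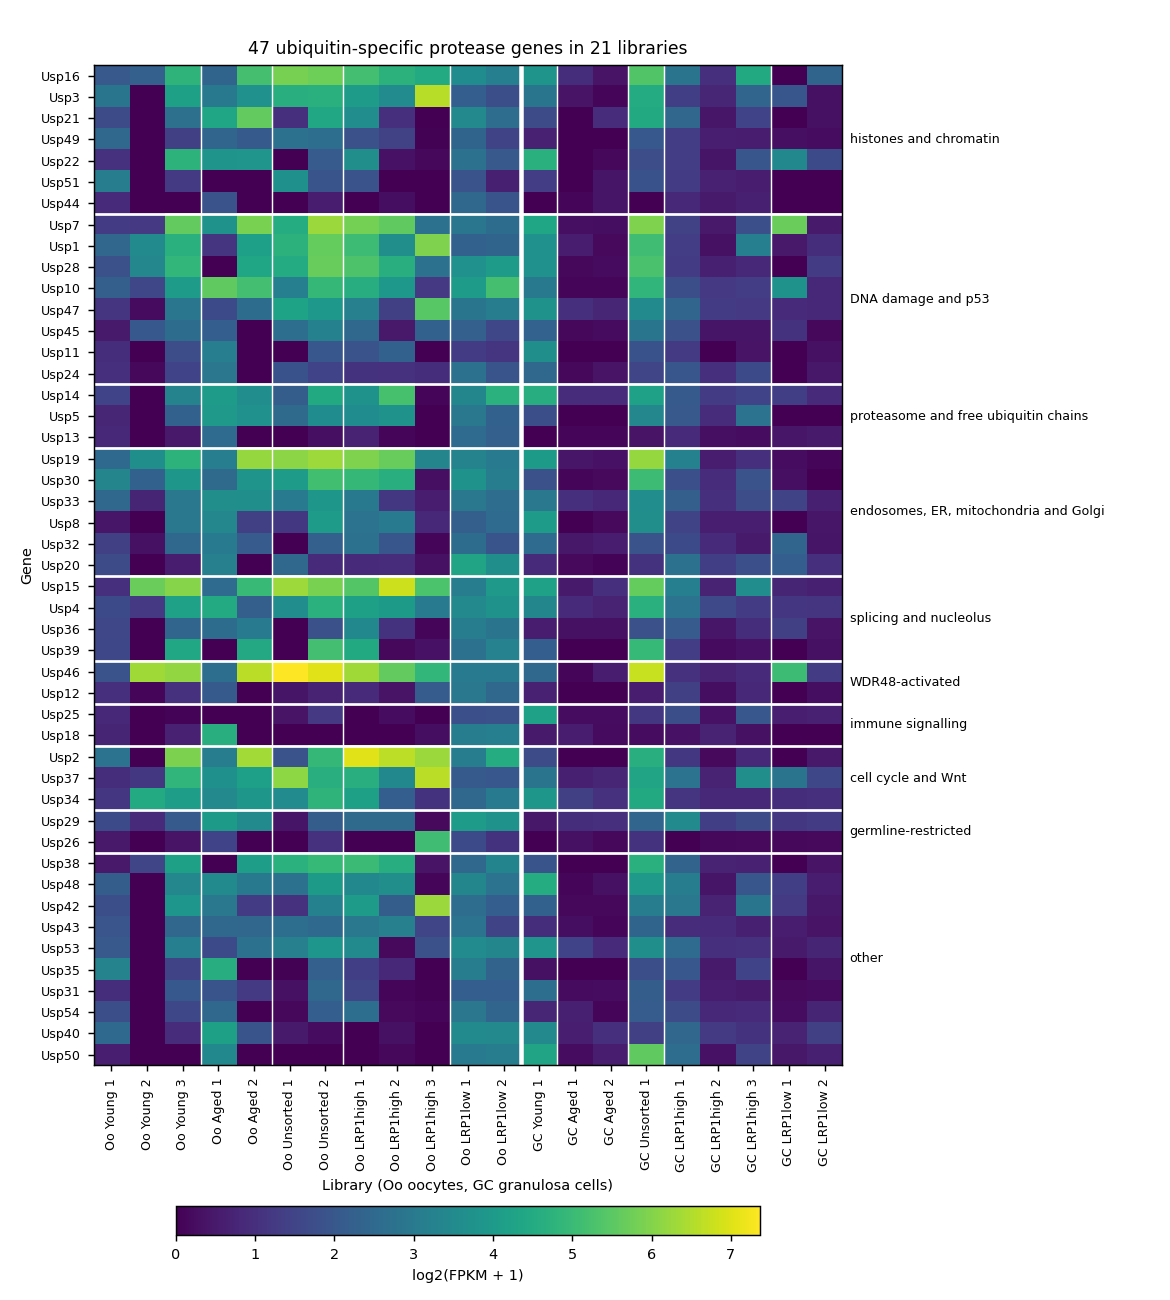
log2(FPKM + 1) of the 47 Usp genes (rows, grouped by role) in the 12 oocyte (Oo) and 9 granulosa cell (GC) libraries (columns), with brighter cells for higher levels and Unsorted, LRP1high and LRP1low standing for the transplanted aged groups. Usp46, Usp15, Usp2, Usp19 and Usp7 are high in most oocyte libraries, the 2 Aged granulosa cell columns are dark throughout, and the granulosa cell column of Aged + Unsorted looks like an oocyte column.

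**Figure D2:**
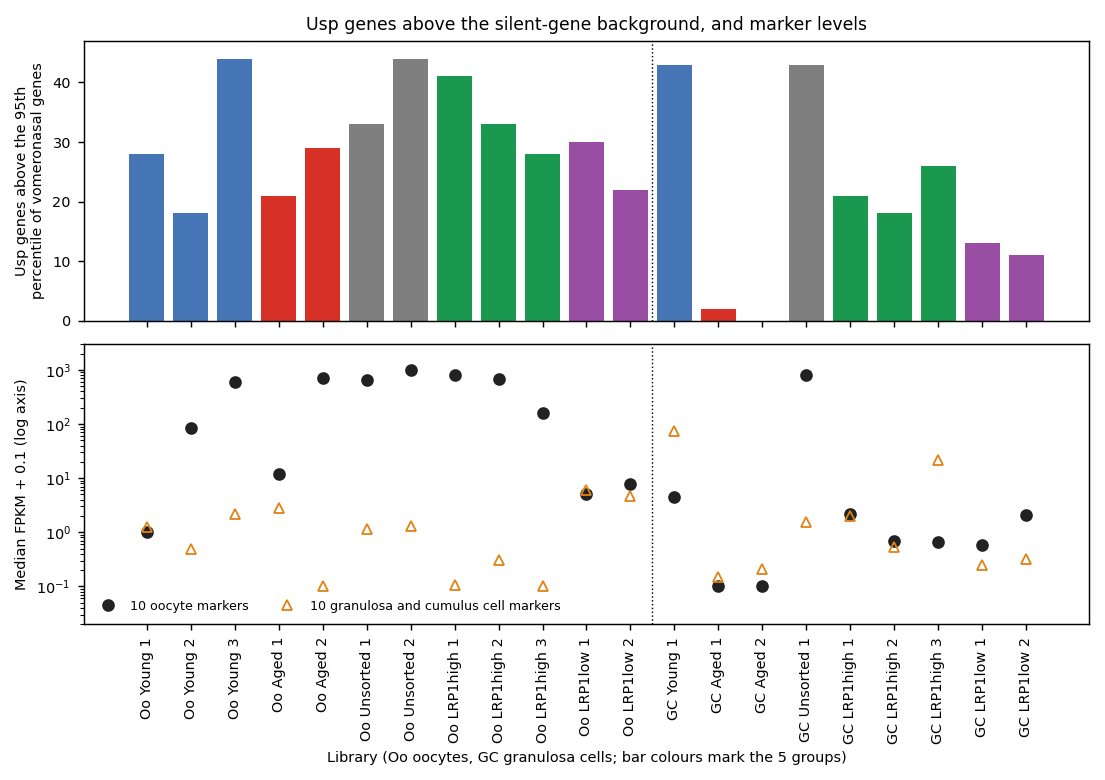
Number of the 47 Usp genes above the 95th percentile of vomeronasal receptor genes in each library (upper panel, bars from 0) and the median FPKM of oocyte and granulosa cell markers, raised by 0.1, on a log axis (lower panel), with a dotted line between cell types. Counts run from 18 to 44 in oocytes and from 0 to 43 in granulosa cells, where the 2 highest bars are the single Young and Aged + Unsorted libraries.

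By its median the highest of the 47 members in oocytes was Usp46, which, like its close relative Usp12, encodes a protease that gains its activity by binding the WD-repeat protein WDR48. Over the 10 oocyte libraries outside Aged + LRP1low its median FPKM was 74.6, rank 1 of 47, although Usp2 exceeded it in all 3 Aged + LRP1high libraries. Usp46 (chr5:73998453-74068431 in GRCm38, minus strand) had an FPKM of 2.73, 78.4 and 70.7 in Young, of 5.29 and 97.1 in Aged, 165 and 130.5 in Aged + Unsorted, 78.7, 47.7 and 28.3 in Aged + LRP1high, and 7.24 and 7.31 in Aged + LRP1low oocytes. It was low in the 4 libraries with few oocyte markers and at 28.3 or more in all 8 others, among which both Aged + Unsorted libraries were the highest. Usp12 (chr5:146734809-146795006, minus strand) had 1.00, 0.0717 and 1.06 in Young, against 3.23 and 0 in Aged, 0.343 and 0.617 in Aged + Unsorted, 0.856, 0.311 and 3.40 in Aged + LRP1high, and 6.81 and 4.62 in Aged + LRP1low oocytes. Usp46 exceeded Usp12 in 12 of 12 oocyte libraries, with medians of 59.2 and 0.928. In granulosa cells Usp46 was at 4.68 in Young, at 0.0826 and 0.471 in Aged, 106 in Aged + Unsorted, 1.08, 0.646 and 0.862 in Aged + LRP1high, and 32.3 and 1.44 in Aged + LRP1low. Usp12 was at 0.597 in Young, at 0 and 0 in Aged, 0.515 in Aged + Unsorted, 1.62, 0.215 and 0.803 in Aged + LRP1high, and 0 and 0.209 in Aged + LRP1low granulosa cells, below Usp46 in 8 of 9 libraries. Of the exon bases of Usp46, 3.67% overlap Usp46os2 on the other strand, whose reads these values may include.

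Because these relatives differed so widely in level, their promoter sequence is shown, from RefSeq on GRCm38.p6, as the bases before the gene start that lie outside every annotated transcript of the gene. The window of Usp46 is chr5:74068432-74068661 and that of Usp12 is chr5:146795007-146795206, both read on the minus strand, and capitals mark the GC box GGGCGG on either strand, overlapping matches joined.
Usp46: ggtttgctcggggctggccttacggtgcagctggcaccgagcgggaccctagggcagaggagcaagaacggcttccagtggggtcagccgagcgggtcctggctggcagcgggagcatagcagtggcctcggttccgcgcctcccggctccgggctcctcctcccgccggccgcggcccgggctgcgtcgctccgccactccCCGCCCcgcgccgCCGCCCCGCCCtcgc
Usp12: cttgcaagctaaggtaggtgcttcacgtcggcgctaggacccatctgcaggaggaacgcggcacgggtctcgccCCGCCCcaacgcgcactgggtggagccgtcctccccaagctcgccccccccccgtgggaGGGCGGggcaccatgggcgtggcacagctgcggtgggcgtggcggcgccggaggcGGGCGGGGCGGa
Both held GC boxes, 3 in 230 bases of Usp46 and 4 in 200 bases of Usp12, and CG dinucleotides were dense in both, with 28 and 23. Promoter windows of 250 bases were found for 36 of the members and not for 11. GGGCGG on either strand was in 66.7% of those members' windows and in 32.7% of all 32851 windows, and the median number of CG dinucleotides was 23.5 (2 to 55) against 6 (0 to 56). The motifs searched for on both strands besides were CCAAT, in 22.2% of members and 33.8% of all, TATAAA, in 5.56% and 12.4%, CACGTG, in 8.33% and 6.02%, and TAATTG, in 0% and 7.17%. A match of TAATTG can share bases with one of CCAAT. These are descriptions of letters in a window.

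Among the proteases of DNA damage and p53, 8 members with a median of 10.4 over their medians in the 10 oocyte libraries, the study names Usp10, which removes ubiquitin from p53 and from other proteins. The study picked Usp10 and Usp21 among its differentially expressed oocyte genes, so their order between these groups is not independent of that choice. From further expression measurements it reports that LRP1high cells restored both genes in aged oocytes. Usp10 (chr8:119910360-119957560, plus strand) had an FPKM of 3.71, 1.99 and 15.6 in Young, of 46.7 and 35.2 in Aged, 8.07 and 28.8 in Aged + Unsorted, 23.2, 14.2 and 1.33 in Aged + LRP1high, and 15.6 and 35.9 in Aged + LRP1low oocytes. Both Aged libraries lay above all Young, Aged + Unsorted and Aged + LRP1high libraries, and Aged + LRP1low replicate 2 lay between them. By TPM that library, at 62.8, lay below both Aged libraries, at 96.8 and 68.0. Means and SDs over the 3 Young and 2 Aged libraries were 7.09 ± 7.39 and 40.9 ± 8.16. They were 18.4 ± 14.6 over 2 Aged + Unsorted, 12.9 ± 11.0 over 3 Aged + LRP1high and 25.7 ± 14.3 over 2 Aged + LRP1low libraries. The difference was 2.76 (SE 1.09) between Aged and Young and -2.13 (SE 1.09) between Aged + LRP1high and Aged, with adjusted p = 0.452 and 0.370 (limma), so neither was called. Granulosa cells had 6.93 in Young, against 0.0955 and 0.0787 in Aged, 28.0 in Aged + Unsorted, 2.41, 1.35 and 1.54 in Aged + LRP1high, and 12.8 and 0.750 in Aged + LRP1low.

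Usp7, which acts on MDM2, p53 and many chromatin proteins, and Usp1, which removes single ubiquitins from PCNA and FANCD2 in DNA repair, belong to the same role. Usp7 (chr16:8689595-8792308, minus strand) had an FPKM of 1.47, 1.35 and 47.8 in Young, of 12.6 and 58.8 in Aged, 22.6 and 76.3 in Aged + Unsorted, 56.1, 46.9 and 5.89 in Aged + LRP1high, and 6.51 and 5.05 in Aged + LRP1low oocytes. In granulosa cells it was at 19.6 in Young, at 0.239 and 0.218 in Aged, 60.6 in Aged + Unsorted, 1.68, 0.420 and 2.45 in Aged + LRP1high, and 50.3 and 0.434 in Aged + LRP1low. The Aged + LRP1low granulosa cell libraries thus differed most within a group, and the groups of oocytes overlapped except for Aged + LRP1low, which lay below Aged and Aged + Unsorted. Usp1 (chr4:98923810-98935543, plus strand) had 4.39, 10.3 and 24.7 in Young, against 1.18 and 17.1 in Aged, 25.4 and 48.5 in Aged + Unsorted, 32.3, 11.4 and 60.6 in Aged + LRP1high, and 3.91 and 4.24 in Aged + LRP1low oocytes. All Aged + Unsorted libraries were above both Aged libraries, while Aged + LRP1high and Aged overlapped. Granulosa cells had 12.2 in Young, against 0.470 and 0.134 in Aged, 33.9 in Aged + Unsorted, 1.53, 0.265 and 8.06 in Aged + LRP1high, and 0.415 and 0.969 in Aged + LRP1low for Usp1. Of the other members, Usp28, a relative of Usp25 that acts in the DNA damage response, had an oocyte median of 17.6 over the 12 libraries, against 0.114 for Usp25. Usp24, Usp47, Usp11 and Usp45 had oocyte medians of 1.45, 6.41, 1.32 and 3.67.

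Of the 7 histone and chromatin proteases, the study names Usp21, which removes ubiquitin from a core histone. Usp21 (chr1:171281945-171287991, minus strand) had an FPKM of 2.29, 0 and 5.64 in Young, of 19.3 and 47.4 in Aged, 0.973 and 20.6 in Aged + Unsorted, 11.2, 0.991 and 0 in Aged + LRP1high, and 10.2 and 5.17 in Aged + LRP1low oocytes. Both Aged libraries were above all Young, Aged + LRP1high and Aged + LRP1low libraries, and the higher Aged + Unsorted library lay between the Aged libraries. The mean was 2.64 ± 2.84 (SD) over the 3 Young and 33.3 ± 19.9 over the 2 Aged libraries, and 10.8 ± 13.9, 4.08 ± 6.22 and 7.66 ± 3.52 over the 2 Aged + Unsorted, 3 Aged + LRP1high and 2 Aged + LRP1low libraries. By limma, Aged exceeded Young by 3.49 (SE 1.28, adjusted p = 0.374) and Aged + LRP1high differed from Aged by -3.43 (SE 1.28, adjusted p = 0.291), neither of them called. In granulosa cells Usp21 was at 2.18 in Young, at 0 and 0.931 in Aged, 21.5 in Aged + Unsorted, 4.45, 0.351 and 1.77 in Aged + LRP1high, and 0 and 0.246 in Aged + LRP1low.

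Usp16, which opens ubiquitinated chromatin around mitosis, was at 3.14, 3.82 and 26.9 in Young, at 4.19 and 35.5 in Aged, 57.6 and 52.6 in Aged + Unsorted, 34.7, 25.9 and 21.6 in Aged + LRP1high, and 10.9 and 8.08 in Aged + LRP1low oocytes. Its granulosa cell median of 4.16 was rank 2 of 47 there, from 13.1 in Young, against 0.944 and 0.310 in Aged, 40.5 in Aged + Unsorted, 6.11, 0.982 and 21.5 in Aged + LRP1high, and 0 and 4.16 in Aged + LRP1low. Usp16 exceeded its relative Usp45 in 12 of 12 oocyte and 8 of 9 granulosa cell libraries. Usp45 was at 0.450, 3.09 and 5.09 in Young, at 3.56 and 0 in Aged, 5.35 and 8.43 in Aged + Unsorted, 4.66, 0.429 and 3.88 in Aged + LRP1high, and 3.78 and 1.99 in Aged + LRP1low oocytes, and at 3.96, 0.118, 0.152, 6.31, 2.56, 0.341, 0.325, 1.11 and 0.109 in the granulosa cell libraries in the same order of groups. It was higher in Young and Aged + Unsorted than in the other granulosa cell libraries. Usp22, the protease subunit of the SAGA coactivator complex, had 1.05, 0 and 26.4 in Young, against 13.2 and 13.3 in Aged, 0 and 3.34 in Aged + Unsorted, 11.5, 0.274 and 0.112 in Aged + LRP1high, and 5.67 and 3.18 in Aged + LRP1low oocytes. Both Aged libraries were above all transplanted ones, and Young spanned the whole range. Usp22 in granulosa cells was at 24.6 in Young, at 0 and 0.123 in Aged, 2.35 in Aged + Unsorted, 1.52, 0.341 and 2.94 in Aged + LRP1high, and 9.85 and 2.18 in Aged + LRP1low. Its relative Usp51 was listed at 0 in both Aged oocyte libraries, with 7.54, 0 and 1.38 in Young, 11.997 and 2.79 in Aged + Unsorted, 2.66, 0 and 0 in Aged + LRP1high, and 2.71 and 0.578 in Aged + LRP1low, and at 1.53, 0, 0.341, 2.66, 1.4997, 0.588, 0.465, 0 and 0 in the granulosa cell libraries in that order. Usp3, Usp44 and Usp49 had oocyte medians of 11.6, 0.103 and 2.89, and 51.2% of the exon bases of Usp49 lie in Gm20517 on the same strand, so its value is uncertain.

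Among the proteases of splicing and the nucleolus, Usp15, which also acts on TGF-beta signalling, ranked second in oocytes with a median of 46.0 over the 10 libraries. Usp15 (chr10:123105006-123196995, minus strand) had an FPKM of 1.01, 50.4 and 64.8 in Young, of 4.99 and 30.3 in Aged, 77.6 and 58.1 in Aged + Unsorted, 41.6, 112 and 37.6 in Aged + LRP1high, and 7.68 and 14.7 in Aged + LRP1low oocytes. All Aged + Unsorted and Aged + LRP1high libraries were above both Aged libraries, and Young overlapped every group. In granulosa cells it was at 17.5 in Young, at 0.449 and 0.988 in Aged, 48.3 in Aged + Unsorted, 8.03, 0.630 and 11.2 in Aged + LRP1high, and 0.686 and 0.563 in Aged + LRP1low. Its paralog Usp4 had 2.13, 1.34 and 17.6 in Young, against 21.6 and 3.73 in Aged, 11.3 and 25.4 in Aged + Unsorted, 17.2, 15.2 and 7.33 in Aged + LRP1high, and 10.2 and 12.5 in Aged + LRP1low oocytes. Usp15 was the higher of both in 9 of 12 oocyte libraries and in 5 of 9 granulosa cell libraries. There Usp4 was at 9.51 in Young, at 0.861 and 0.677 in Aged, 24.5 in Aged + Unsorted, 6.01, 2.07 and 1.41 in Aged + LRP1high, and 1.25 and 1.21 in Aged + LRP1low. Usp4 in turn exceeded Usp11, the remaining relative, in 12 of 12 oocyte libraries. Usp36, a nucleolar protease, and Usp39, a splicing factor that lacks protease activity, had oocyte medians of 3.39 and 3.94.

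Usp2 was the leading protease of the cell cycle and Wnt role, and is known to stabilise cyclin D1 and to follow the circadian clock. Usp2 (chr9:44067021-44095627, plus strand) had an FPKM of 6.03, 0 and 59.6 in Young, of 7.79 and 80.2 in Aged, 2.69 and 29.3 in Aged + Unsorted, 132, 99.2 and 76.5 in Aged + LRP1high, and 7.60 and 22.4 in Aged + LRP1low oocytes. The 3 Aged + LRP1high libraries were above all others except Aged replicate 2, which fell between them. In granulosa cells Usp2 was at 2.27 in Young, at 0 and 0 in Aged, 24.2 in Aged + Unsorted, 1.297, 0.131 and 0.764 in Aged + LRP1high, and 0 and 0.406 in Aged + LRP1low. Of its exon bases, 4.15% overlap Gm39325. Usp2 exceeded Usp21, a close relative in its catalytic domain, in 9 of 12 oocyte libraries and in 3 of 9 granulosa cell libraries.

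Usp37, which stabilises cyclin A, was the highest member in granulosa cells by its median, 6.02, with 6.11 in Young, against 0.579 and 0.728 in Aged, 18.7 in Aged + Unsorted, 6.02, 0.632 and 11.6 in Aged + LRP1high, and 6.10 and 2.03 in Aged + LRP1low. In oocytes Usp37 was at 0.944, 1.31 and 28.1 in Young, at 11.9 and 16.9 in Aged, 68.6 and 23.5 in Aged + Unsorted, 24.0, 9.84 and 96.8 in Aged + LRP1high, and 3.22 and 3.00 in Aged + LRP1low. Its lowest values were in Young replicates 1 and 2 and in the Aged + LRP1low libraries. Usp34, which acts on axin in Wnt signalling, had an oocyte median of 10.5. The germline members Usp29, an imprinted gene, and Usp26, an X-linked gene of the testis, are relatives of Usp37. Usp29 had 2.15, 0.829 and 3.27 in Young, against 15.2 and 10.5 in Aged, 0.343 and 3.53 in Aged + Unsorted, 4.79, 4.84 and 0.130 in Aged + LRP1high, and 15.9 and 12.6 in Aged + LRP1low oocytes, so that the Aged and Aged + LRP1low libraries were all above the rest. In granulosa cells Usp29 was at 0.403 in Young, at 0.956 and 0.986 in Aged, 4.25 in Aged + Unsorted, 10.3, 1.56 and 2.24 in Aged + LRP1high, and 1.27 and 1.47 in Aged + LRP1low. Usp29 exceeded Usp26 in 11 of 12 oocyte libraries, and 14.3% of its exon bases lie in Zim3. Usp26 was at or below 2.13 in every oocyte library except Aged + LRP1high replicate 3, where it was at 33.9.

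Usp19, an endoplasmic reticulum protease, led the 6 members of membranes and organelles. Usp19 (chr9:108490602-108502337, plus strand) had an FPKM of 4.72, 11.7 and 26.1 in Young, of 7.83 and 73.5 in Aged, 67.4 and 78.0 in Aged + Unsorted, 60.6, 49.8 and 9.21 in Aged + LRP1high, and 8.76 and 7.22 in Aged + LRP1low oocytes. It was never listed at 0, and both Aged + Unsorted libraries were above all Young, Aged + LRP1high and Aged + LRP1low libraries, while Aged spanned most of the range. In granulosa cells it was at 15.1 in Young, at 0.353 and 0.284 in Aged, 73.0 in Aged + Unsorted, 8.38, 0.487 and 1.01 in Aged + LRP1high, and 0.180 and 0.0962 in Aged + LRP1low. Usp20 (chr2:30982279-31023586, plus strand), which with its paralog Usp33 acts on receptors at the membrane, had 2.21, 0 and 0.474 in Young, against 8.22 and 0 in Aged, 4.65 and 0.890 in Aged + Unsorted, 0.880, 0.922 and 0.266 in Aged + LRP1high, and 18.9 and 11.7 in Aged + LRP1low oocytes. Both Aged + LRP1low libraries were above all 10 others. Granulosa cells had 0.866 in Young, against 0.137 and 0.0606 in Aged, 1.10 in Aged + Unsorted, 5.75, 1.59 and 2.46 in Aged + LRP1high, and 3.61 and 1.02 in Aged + LRP1low for Usp20.

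Usp33 had 4.59, 0.691 and 6.78 in Young, against 11.5 and 11.8 in Aged, 7.18 and 14.1 in Aged + Unsorted, 6.87, 1.29 and 0.490 in Aged + LRP1high, and 6.81 and 5.16 in Aged + LRP1low oocytes, above Usp20 in 10 of 12 libraries. In granulosa cells it was at 6.68 in Young, at 1.03 and 0.793 in Aged, 11.3 in Aged + Unsorted, 3.67, 0.984 and 2.35 in Aged + LRP1high, and 1.85 and 0.580 in Aged + LRP1low. Both Aged oocyte libraries were above all Young, Aged + LRP1high and Aged + LRP1low libraries for Usp33, of whose exon bases 15.3% overlap Gm43857. Usp8, which sorts receptors at endosomes, was at 0.376, 0 and 6.67 in Young, at 9.56 and 1.65 in Aged, 1.27 and 15.7 in Aged + Unsorted, 6.06, 7.07 and 0.772 in Aged + LRP1high, and 3.68 and 4.97 in Aged + LRP1low oocytes, and the groups overlapped. In granulosa cells it was at 15.4 in Young, at 0 and 0.146 in Aged, 11.4 in Aged + Unsorted, 1.86, 0.530 and 0.522 in Aged + LRP1high, and 0 and 0.357 in Aged + LRP1low. In oocytes Usp30 of the mitochondrial outer membrane ran from 0.241 to 34.2, and Usp32 from 0 to 7.08. Of the 3 proteases of the proteasome and of free ubiquitin chains, Usp14, bound to the proteasome, had an oocyte median of 10.4 and Usp5, which recycles free chains, one of 5.84, against 0.333 for Usp13, the paralog of Usp5. The value of Usp14 is uncertain, since 26.0% of its exon bases overlap Thoc1 on the other strand.

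Usp40 and Usp50, both of little known function, were near 0 in most oocytes. Usp40 (chr1:87945119-88008551, minus strand) had an FPKM of 4.74, 0 and 0.926 in Young, of 17.1 and 2.81 in Aged, 0.456 and 0.192 in Aged + Unsorted, 0, 0.259 and 0 in Aged + LRP1high, and 10.4 and 10.1 in Aged + LRP1low oocytes. All 5 Aged + Unsorted and Aged + LRP1high libraries were below both Aged and both Aged + LRP1low libraries. Granulosa cell libraries were at 10.2 in Young, at 0.544 and 1.05 in Aged, 1.64 in Aged + Unsorted, 4.45, 1.37 and 1.13 in Aged + LRP1high, and 0.625 and 1.63 in Aged + LRP1low. Usp47, its nearest relative, was higher in 8 of 12 oocyte libraries, with 1.18, 0.166 and 6.50 in Young, against 2.12 and 5.14 in Aged, 18.6 and 14.3 in Aged + Unsorted, 8.23, 1.63 and 42.7 in Aged + LRP1high, and 6.32 and 7.76 in Aged + LRP1low. In granulosa cells Usp47 was at 12.9 in Young, at 1.05 and 0.722 in Aged, 10.3 in Aged + Unsorted, 4.24, 1.43 and 1.34 in Aged + LRP1high, and 0.881 and 0.787 in Aged + LRP1low.

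Usp50 (chr2:126709096-126783470, minus strand) was at 0.537, 0 and 0 in Young, at 9.85 and 0 in Aged, 0 and 0 in Aged + Unsorted, 0, 0.112 and 0 in Aged + LRP1high, and 7.04 and 7.52 in Aged + LRP1low oocytes. The 3 libraries above 1 were all among those with few oocyte markers. Its granulosa cell values were 18.7 in Young, next to 0.183 and 0.511 in Aged, 46.8 in Aged + Unsorted, 5.15, 0.280 and 1.86 in Aged + LRP1high, and 0.400 and 0.576 in Aged + LRP1low. It lies across Usp8 on the other strand without a shared exon base, and 6.57% of its own exon bases lie in the processed pseudogene Gm10774. Usp50 exceeded Usp8 in 8 of 9 granulosa cell libraries and in 4 of 12 oocyte libraries. The remaining members of unsettled or other roles reached 4.49 (Usp31) to 75.5 (Usp42) in their highest oocyte library, and 2.97 (Usp35) to 24.6 (Usp38) in granulosa cells. The immune members Usp18 and Usp25, of which Usp18 removes the ubiquitin-like protein ISG15, had oocyte medians of 0.107 and 0.114.

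**Figure D3:**
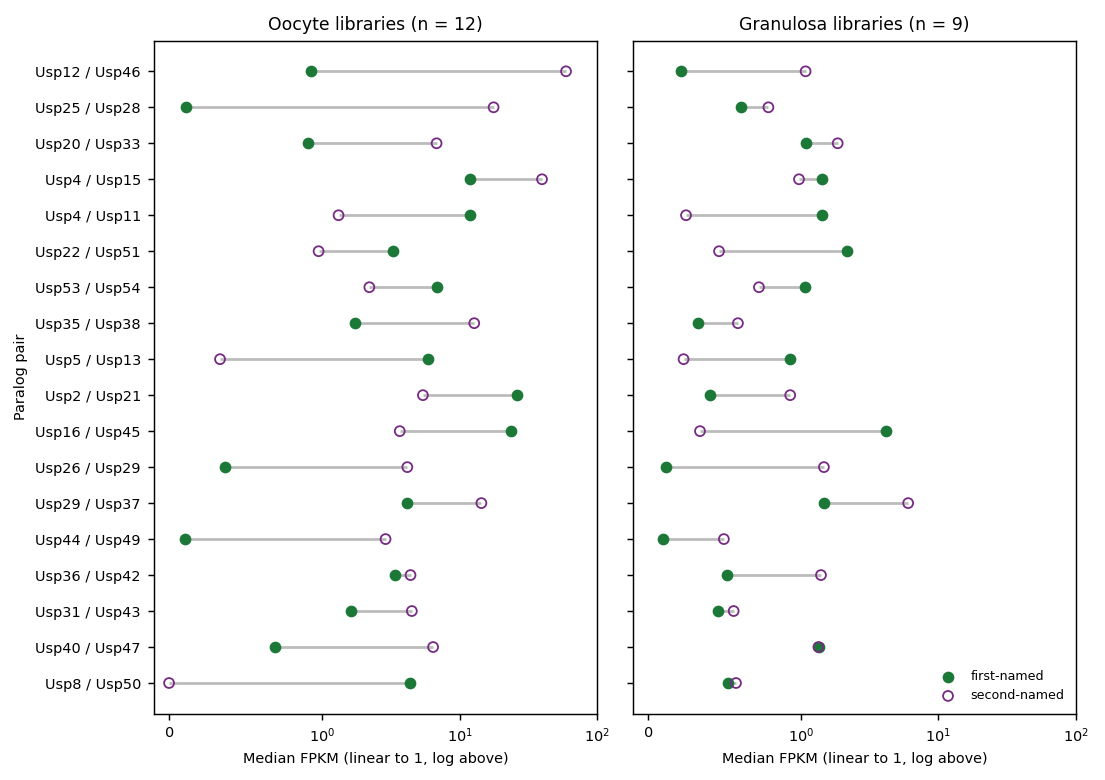
Median FPKM of the 18 pairs of related Usp genes in oocytes and in granulosa cells, on an axis that is linear up to 1 and logarithmic above, with a filled symbol for the gene named first and an open symbol for the gene named second. The widest gap in oocytes by ratio among pairs with both medians above 0 is that of Usp25 and Usp28 (0.114 and 17.6), and that of Usp12 and Usp46 (0.928 and 59.2) holds in 12 of 12 libraries.

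Age was examined first in oocytes, between 2 Aged and 3 Young libraries. Of 28004 genes whose FPKM averaged at least 1, 45 were members, and none of these 45 passed a fold change over 1.5 with an adjusted p under 0.05 (limma, Benjamini-Hochberg over all genes), where 0.0964% of all genes did. Without adjustment 5 were higher in Aged, Usp5, Usp10, Usp21, Usp29 and Usp40, which is 11.1% of the members against 8.65% of all genes. The groups did not overlap for 7 members, all higher in Aged (Usp5, Usp10, Usp14, Usp21, Usp29, Usp33 and Usp36), which is 15.6% against 11.7% of all genes. The median difference of the members was 0.85 and that of all genes 0.94, and 82.2% of members and 78.4% of genes were positive. With every library in the fit, the upward shift of the Usp genes was thus close to that of all genes. Under quantile normalization, which removes the shift of all genes, the members' median was -0.12. With a filter at a mean FPKM of at least 10 the medians were 0.87 for the members and 0.92 for all genes. Without Aged replicate 1, Aged holds replicate 2 alone, and the members' median was 0.89 against -0.18 over all genes, so the closeness was lost. Usp46 and Usp15, the most abundant members, differed by -0.16 (SE 1.38, adjusted p = 0.972) and -0.47 (SE 1.36, adjusted p = 0.877). Young replicate 1 and Aged replicate 1 are among the libraries with few oocyte markers, with a summed FPKM over the 10 markers of 11.4 in the former and 152.9 in the latter. Without the 4 such libraries Aged holds replicate 2 alone, and the members' median was 1.12 against 1.14 over all genes. Leaving out Aged replicate 2 alone gave 7 of 46 members called higher, 15.2% against 33% of all genes: Usp40, Usp44, Usp20, Usp50, Usp24, Usp18 and Usp13. The Aged group then holds replicate 1 alone, which has few oocyte markers and is assumed to vary like the other groups.

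**Figure D4:**
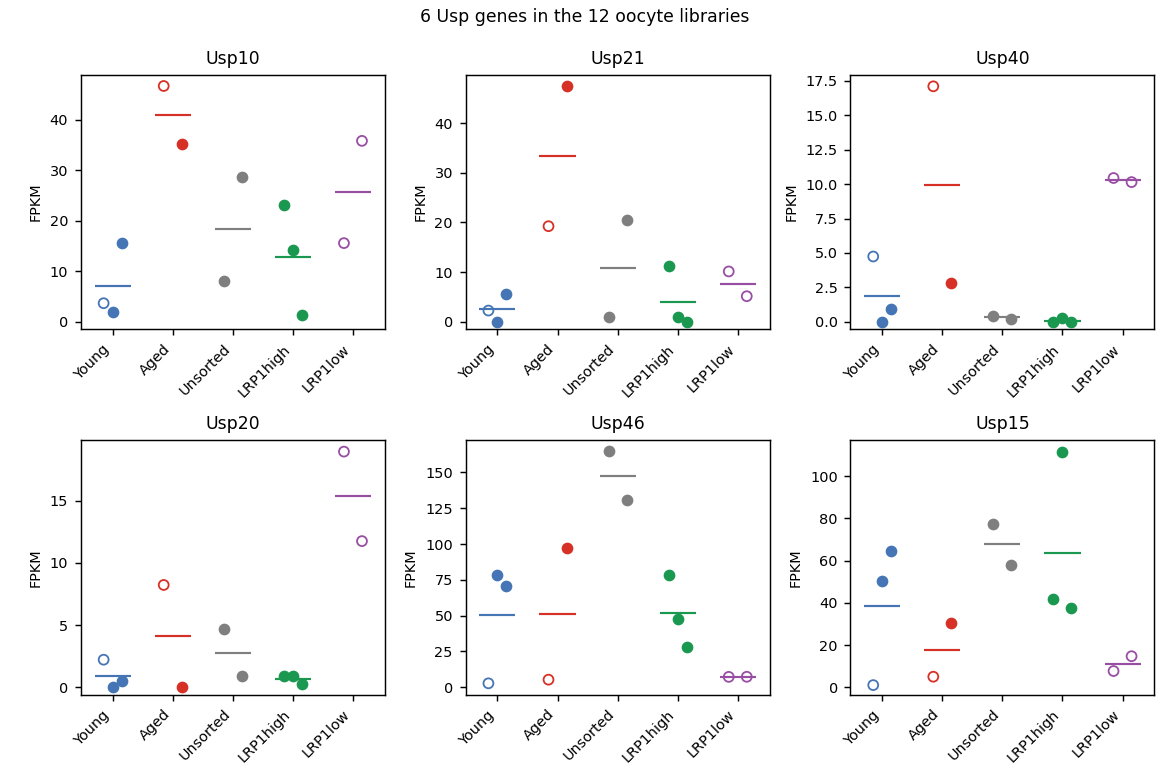
FPKM of Usp10, Usp21, Usp40, Usp20, Usp46 and Usp15 in the 12 oocyte libraries by group, with a circle per library, a hollow circle for each of the 4 libraries whose oocyte marker median is under 20, and a horizontal line at the group mean. Usp10 and Usp21 are highest on average in Aged, Usp20 is highest in Aged + LRP1low, and for Usp46 and Usp15 the hollow circles lie below the filled ones of the other groups and of their own.

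The transplanted groups were each compared with the same 2 Aged libraries, so these comparisons are not independent of each other or of that with Young. None of the 45 members was called in Aged + Unsorted against Aged oocytes, where 0% of all genes were. Without adjustment Usp1 (2.53, SE 1.13) and Usp51 (2.81, SE 1.10) were higher and Usp29 (-2.47, SE 0.95) and Usp40 (-2.65, SE 0.94) lower, which is 8.89% of members against 8.74% of all genes. The members' median was 0.14, while that of all genes was -0.86. With a filter at a mean FPKM of at least 10 these medians were 1.36 and 1.47. Without Aged replicate 2, 8 of 46 members were called, 17.4% against 36.9% of all genes, Usp16, Usp1 and Usp28 higher and 5 others lower than the lone replicate 1. Without the 4 libraries with few oocyte markers Aged holds replicate 2 alone, and the members' median was 0.61 against 0.23 over all genes.

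The question for LRP1high cells was put to 3 Aged + LRP1high and 2 Aged oocyte libraries. Of the 45 members 0 were called, where 0.771% of all genes were, and 4 were lower without adjustment: Usp21, Usp29, Usp33 and Usp40, or 8.89% of members against 10.9% of all genes. Usp40 had the lowest adjusted p of the members, 0.135, at a difference of -2.94 (SE 0.86), and was lower in 3 of 3 Aged + LRP1high libraries than in both Aged libraries. The libraries of both groups did not overlap for 8 members, 17.8% against 16.2% of all genes, with Usp15 higher in Aged + LRP1high and Usp10, Usp21, Usp22, Usp29, Usp33, Usp40 and Usp49 lower. The members' median was -0.25 against -1.05 over all genes, and 0.97 against 0.68 with a filter at a mean FPKM of at least 10. Leaving out Aged replicate 2 keeps only Aged replicate 1, and the members' median was then -0.99 against -1.75 over all genes. Leaving out the 4 libraries with few oocyte markers keeps only Aged replicate 2, with medians of -0.49 for the members and -0.50 for all genes.

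Against Young, the Aged + LRP1high oocytes had 0 of 45 members called, where 0% of all genes were, and Usp2 (3.75, SE 1.40), Usp3 (2.38, SE 1.06) and Usp37 (2.55, SE 1.09) were higher without adjustment, 6.67% of members against 3.17% of all genes. Usp10 and Usp21 differed from Young by 0.63 (SE 0.98) and 0.05 (SE 1.15), each with an adjusted p of 1. The members' median was 0.43 and that of all genes -0.14. With a filter at a mean FPKM of at least 10 they were 1.37 and 1.45. Without the 4 libraries with few oocyte markers 0 of 39 members and 0 of 12105 genes were called.

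Against Aged, Aged + LRP1low oocytes had 0 of 45 members called, where 3.17% of all genes were. Usp20 alone was higher without adjustment, at 2.39 (SE 1.05, adjusted p = 0.330), which is 2.22% of members against 14.1% of all genes. The members' median of 0.17 lay below the 0.68 of all genes. With a filter at a mean FPKM of at least 10 it was -0.58 and that of all genes -1.02. With Aged replicate 1 left out, Aged holds replicate 2 alone, and the members' median was 0.03 against 1.87 over all genes. Both Aged + LRP1low libraries had few oocyte markers, with a summed FPKM of 53.04 and 165.9 over the 10 markers and Bmp15 listed at 0 in replicate 2, and their vomeronasal receptor genes had a median of 2.72 and 2.48. The part of this in the result was not tested.

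Between the sorted cell groups, Aged + LRP1high against Aged + LRP1low, 3 of 45 members were called, 6.67%, against 26% of all genes, of which 6951 of 7291 were lower in Aged + LRP1high. Without adjustment the shares were 20% and 49.1%. All 3 were lower in Aged + LRP1high, with a difference of -3.39 for Usp40 (SE 0.86, adjusted p = 0.0278), -3.26 for Usp20 (SE 0.96, adjusted p = 0.0370) and -3.00 for Usp50 (SE 0.87, adjusted p = 0.0362; limma). Each was lower in 3 of 3 Aged + LRP1high than in 2 of 2 Aged + LRP1low libraries. In Aged + LRP1low, Usp50 was at 7.04 and 7.52, above the 95th percentile of the vomeronasal receptor genes (5.38 and 5.32). It was under their 99th percentile (8.66 and 7.59), which Usp40 and Usp20 exceeded in both libraries. The groups did not overlap for 18 members, 40% against 69.4% of all genes, 8 of them higher and 10 lower in Aged + LRP1high. The members' median was -0.64 against -1.89 over all genes, and turned to 1.00 under quantile normalization. The mean FPKM of at least 1 is taken over all oocyte libraries, so genes can enter through the Aged + LRP1low libraries alone. At a mean of at least 10, with 18 members and 4066 genes, the medians were 1.59 and 1.57. The 3 calls were lost when any 1 of the 5 libraries was left out, with a pseudocount of 0.1 and with the replicate numbers as a block. Since the Aged + LRP1low libraries are those with few oocyte markers, the summed oocyte markers being 53.04 and 165.9 against 3507 to 9246 in Aged + LRP1high, their content and the transplanted cells cannot be told apart here.

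The promoter windows of Usp10, which the study names, and of Usp40, the member with the largest called fall, are printed beside these values, from RefSeq on GRCm38.p6 and with GGGCGG in capitals where present.
Usp10: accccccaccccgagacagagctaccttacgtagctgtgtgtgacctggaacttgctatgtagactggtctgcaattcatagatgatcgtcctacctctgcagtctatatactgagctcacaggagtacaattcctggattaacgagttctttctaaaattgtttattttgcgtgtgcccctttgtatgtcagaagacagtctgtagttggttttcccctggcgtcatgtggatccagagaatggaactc
Usp40: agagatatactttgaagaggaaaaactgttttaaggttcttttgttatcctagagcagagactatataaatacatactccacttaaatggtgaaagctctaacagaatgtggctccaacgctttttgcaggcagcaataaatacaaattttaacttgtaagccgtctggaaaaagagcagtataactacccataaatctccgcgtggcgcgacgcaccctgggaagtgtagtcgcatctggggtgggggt
The window of Usp10 is chr8:119910110-119910359 on the plus strand and that of Usp40 is chr1:88008552-88008801 on the minus strand. Neither held GGGCGG, their 250 bases had 6 and 8 CG dinucleotides, and Usp40 held 1 TATAAA.

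In granulosa cells 38 members were among the 13002 genes tested, and Young and Aged + Unsorted, with 1 library each, entered no comparison within granulosa cells. In Aged + LRP1high against Aged, 0 of 38 members were called, where 0% of all genes were. Usp5 (1.94, SE 0.59), Usp20 (1.84, SE 0.59), Usp24 (1.26, SE 0.43), Usp30 (1.39, SE 0.42) and Usp42 (2.01, SE 0.77) were higher without adjustment, 13.2% of members against 8.51% of all genes, each with adjusted p = 0.458. The groups did not overlap for 28 members, all higher in Aged + LRP1high, 73.7% against 51.8% of all genes. The medians were 1.03 for the members and 0.89 for all genes, and 37 of 38 members were positive, as were 92.8% of all genes. In both Aged libraries each list of cell type markers summed to an FPKM of 2.82 or less. The summed FPKM of the 10 granulosa markers was 1.27 and 1.90, with Inha and Amh listed at 0 in both, against 46.8, 4.56 and 1269 in Aged + LRP1high, and luteal markers summed to 0.742 and 2.07 against 1789, 7.37 and 87.6. The part of these differences in the Usp values was not tested.

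Aged + LRP1low granulosa cells likewise had 0 of 38 members called against Aged, with 0% of all genes, and Usp22 alone was higher without adjustment, at 2.47 (SE 0.77), 2.63% of members against 3.79% of all genes. The members' median was 0.23 and that of all genes 0.31. Without Aged + LRP1low replicate 2, the remaining library had 3 of 39 members called higher, 7.69% against 5.61% of all genes, which were Usp7, Usp10 and Usp46 at 50.3, 12.8 and 32.3 FPKM, with this lone library assumed to vary like the other groups. That library is the one with high luteal markers. Whether the LRP1high difference from Aged differed between oocytes and granulosa cells was tested as an interaction over 21767 genes. By limma 0 of 45 members passed the adjusted threshold, as did 0% of all genes, and 8 passed it unadjusted, where 16% of all genes did. Usp40 had the lowest adjusted p = 0.131 (limma), at an interaction of -3.70. For LRP1low the counts were 0 and 2, against 0% and 6.41% of all genes, and the lowest adjusted p was 0.773.

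Oocytes and granulosa cells were compared within Aged + LRP1high, the condition with 3 libraries of each. Of 45 members 4 were called, all higher in oocytes, which is 8.89% against 5.24% of all 21767 genes. Usp2 was higher by 5.93 (SE 1.18, adjusted p = 0.00877), Usp46 by 4.71 (SE 1.17, adjusted p = 0.0258), Usp19 by 3.39 (SE 0.92, adjusted p = 0.0392) and Usp1 by 3.26 (SE 0.90, adjusted p = 0.0437; limma). Each was higher in 3 of 3 oocyte than in all 3 granulosa cell libraries. Usp28 and Usp3 had differences of 3.33 and 3.22, each with adjusted p = 0.0643, Usp15 one of 3.34 with 0.103 and Usp7 one of 3.50 with 0.153, so these did not pass. The lower end was held by Usp40 (-1.48), Usp50 (-1.45), Usp25 (-1.30) and Usp20 (-1.24), none of them called. The libraries did not overlap for 16 members, 11 higher and 5 lower in oocytes, 35.6% against 31.5% of all genes, and without adjustment 26.7% of members were past the threshold against 16.1% of all genes. The members' median was 0.88 against -0.18 over all genes, and 3.29 against 2.98 with a filter at a mean FPKM of at least 10.

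The call of Usp2 was the steadiest of these, past the threshold in 13 of 16 alternatives, with adjusted p from 0.000368 to 0.0986. Usp46 and Usp1 passed in 7 and Usp19 in 6 of 16. Without granulosa Aged + LRP1high replicate 2, no member was called, and without oocyte Aged + LRP1high replicate 1 only Usp2 was. The 3 granulosa cell libraries differed in their markers, with granulosa marker medians of 1.93, 0.429 and 21.4 in replicates 1, 2 and 3. Averaged over the 4 conditions Young, Aged, Aged + Unsorted and Aged + LRP1high, 1 of 45 members was called, Usp50, lower in oocytes, with 139 of all 21767 genes. That average uses the single Young and Aged + Unsorted granulosa cell libraries, and in the latter, whose oocyte marker median was 799.7, Usp50 was at 46.8. Without it and the 4 oocyte libraries with few oocyte markers, the comparison within Aged + LRP1high gave 6 of 42 members, 14.3% against 11% of all genes: Usp1, Usp2, Usp15, Usp19, Usp28 and Usp46.

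**Figure D5:**
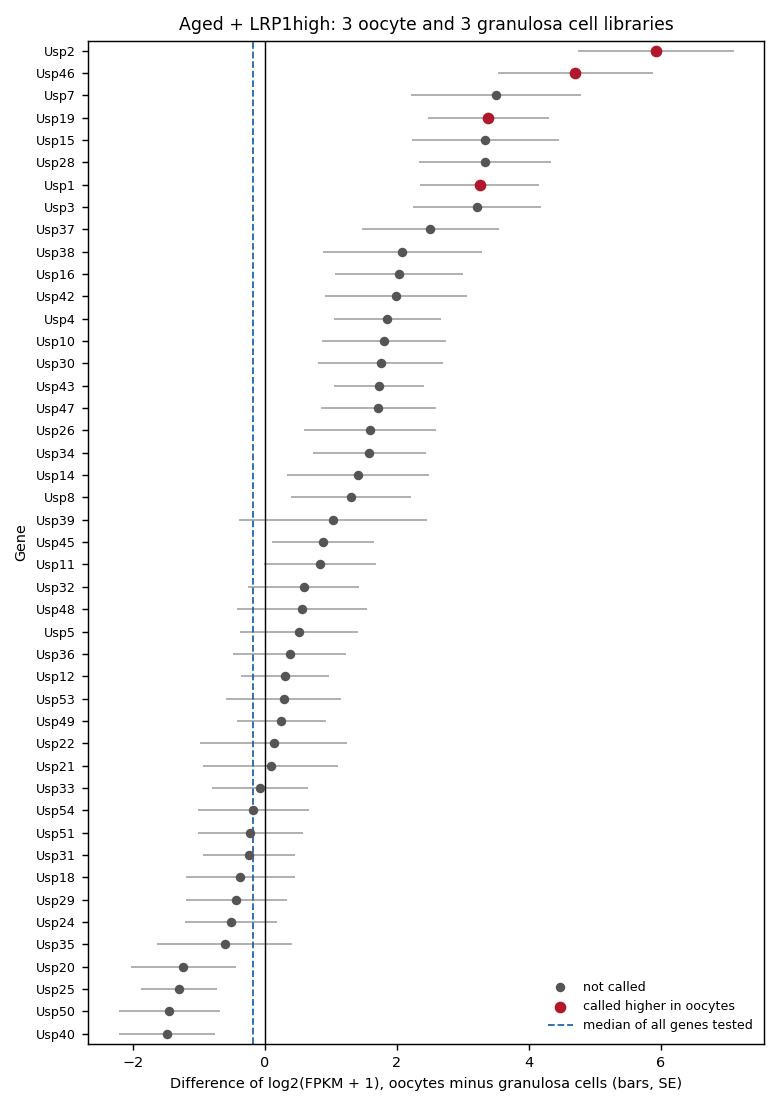
Difference between oocytes and granulosa cells of Aged + LRP1high on the log2(FPKM + 1) scale for the 45 tested Usp genes, ordered by size, with bars for the standard error, called genes in red and a dashed line at the median of all genes. Usp2, Usp46, Usp19 and Usp1 are called, at 5.93, 4.71, 3.39 and 3.26, and most members lie to the right of the dashed line at -0.18.

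The other genes of the ubiquitin system were taken as lists. Of 41 other deubiquitinases, 39 were tested in oocytes. None was called in Aged against Young, each transplanted group against Aged or Aged + LRP1high against Young, where 0% to 3.17% of all genes were. Without adjustment 0 to 4 of the 39 were higher and 0 to 1 lower, where 3.17% to 14.1% of all genes were past the threshold. Of the 33 tested in granulosa cells 0 were called, as were 0% of all genes. Without adjustment 3 were higher in Aged + LRP1high and 0 in Aged + LRP1low against Aged, where 8.51% and 3.79% of all genes passed. Between Aged + LRP1high and Aged + LRP1low, 4 of the 39 were higher (Otub1 6.83, Uchl1 7.20, Usp9x 3.19 and Usp27x 2.77) and 3 lower (Mpnd -3.05, Otud7a -2.67 and Uspl1 -3.03). Of all genes 26% were called there, and the median of the list was -0.21 against -1.89 over all genes. Otub1 and Uchl1 encode deubiquitinases of the OTU and UCH families, and Uchl1 is abundant in oocytes and neurons. In Aged + LRP1high oocytes against granulosa cells, 3 of 39, Otub1 (6.63), Uchl1 (7.65) and Usp9x (4.01), were called higher and none lower, where 5.24% of all genes were called. The median of the list was 1.45 against -0.18 over all genes. Of 19 tested partners of Usp proteins, G3bp2 (4.37), Gmps (3.05) and Wdr20 (3.80) were called higher there, against the same 5.24% of all genes. G3bp2 belongs to the family of regulators of Usp10, Gmps binds Usp7, and Wdr20 is a cofactor of Usp12 and Usp46. Between the sorted groups, Pcna, a substrate of Usp1, was higher (4.15) and Atxn7l3, a partner of Usp22, lower (-2.66) of 18 partners, where 26% of all genes were called. In the 7 comparisons with no called member, none of the partner genes was called either. At most 1 was higher and 0 lower without adjustment, where 3.17% to 14.1% of all genes passed.

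The likeness of oocyte libraries in their Usp genes varied widely, within groups and between them. Over the 47 members, Pearson's r of log2(FPKM + 1) had a median of 0.517 within groups of oocytes (9 pairs of libraries, 0.0827 to 0.819). Between groups the median was 0.385 (57 pairs, -0.117 to 0.960). The most alike were Young replicate 3 and Aged + LRP1high replicate 1. The granulosa cell library of Aged + Unsorted reached 0.889 with oocyte Aged + Unsorted replicate 2. The points of each value are genes and share the library's depth, so these values are descriptions.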

How the data were processed

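The data are 12 oocyte and 9 granulosa cell RNA sequencing libraries of mice, grouped by their labels. The authors aligned reads with HISAT2 2.2.1 and computed values with StringTie 1.3.3b. The submitters' notes name mm9, but the coordinates of 54577 identifiers match GENCODE M21 on GRCm38, and coordinates are given on that build. For each library the authors deposited coverage (mean read depth over a gene), FPKM and TPM. The deposited FPKM was used here, the deposited TPM in an alternative and the deposited coverage signal only for depth, as its median ratio to FPKM over 21693 single-exon genes. Between 4 and 21 repeated identifiers in a file were added up. No read counts were used, so no counting intervals are given. Whether counting used the strand of reads is not given in the sources used here.

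The linear model was limma's (version 3.58.1, R 4.3.3, lmFit then eBayes) on log2(FPKM + 1), for genes whose FPKM averaged at least 1, with every group of a cell type together and all 21 libraries for the comparison of cell types, with Benjamini-Hochberg adjustment over all genes tested. The call needed an adjusted p under 0.05 together with a fold change over 1.5, as in the study's methods. Tables were prepared in Python 3.11.15. On simulated data, Aged against Young called 9 of 100 genes given a log2 change of 3, 63 of 100 given one of 6, and 2 of the unchanged genes, among 28004. The numbers were 12, 55 and 4 for Aged + LRP1high against Aged oocytes, 25, 68 and 4 in granulosa cells (13002 genes), and 22, 85 and 7 between cell types (21767 genes).

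Members and gene lists were chosen with earlier results of these data known. Values in every library are given for Usp10 and Usp21, called members, the 5 members with the highest median in each cell type and the paired relatives of these. The alternatives were another pseudocount, filter, unit, normalization, variance model or p-value, a replicate block, only the groups compared, and libraries left out. The values of 1 list of ubiquitin system genes are not reported here.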

Additional observations from a re-analysis of the deposited data

Results flagged for a closer look

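The single granulosa cell library of Young and that of Aged + Unsorted entered no comparison within granulosa cells, since each is alone in its group, and were otherwise used only in the fits that hold every group and in the average over 4 conditions. Both had 43 of the 47 Usp genes above the 95th percentile of the vomeronasal receptor genes of the library, against 2 and 0 in the Aged granulosa cell libraries, which is what marked them for a closer look. Genes of any kind at an FPKM of 1 or more numbered 12128 in Young and 13705 in Aged + Unsorted, against 2734 and 2089 in the Aged libraries. The Young library had granulosa markers at a median FPKM of 74.9. The Aged + Unsorted library had oocyte markers at a median of 799.7, and its Usp46 (106), Usp19 (73.0) and Usp7 (60.6) were within the range of the oocyte libraries.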

How the results depend on the processing

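Of 131 recounts of called Usp genes under another setting, 90 stayed within 1.5 times the reported count and 41 did not, and of 100 settings for single named genes 46 kept the call, 54 lost it and 0 changed direction. Without adjustment of p, the numbers of called members were 5 for Aged against Young oocytes, 4 for Aged + Unsorted, 4 for Aged + LRP1high and 1 for Aged + LRP1low against Aged oocytes, 9 for Aged + LRP1high against Aged + LRP1low, 3 for Aged + LRP1high against Young, 5 for Aged + LRP1high and 1 for Aged + LRP1low against Aged granulosa cells, and 12 between cell types. For the comparison of the sorted groups that is 20% of members against 49.1% of all genes, and between cell types 26.7% against 16.1%. Leaving out 1 library in turn gave 0 members for Aged + LRP1high against Young oocytes, where 0% to 0.704% of all genes were called. Between cell types it gave 0 to 5 members, where 1.45% to 7.43% of all genes were called. In the other comparisons a group can be left with 1 library. The counts of members and of all genes rose in some of those fits, and they are not listed here. The count of 3 for Aged + LRP1high against Aged + LRP1low became 0 with a pseudocount of 0.1 (0 of all genes) or a mean FPKM of at least 10 (3.96% of all genes), 7 with no filter (42.5%), 7 with TPM (47.7%), 5 with a trended and robust eBayes (36.1%) and 14 with only the groups compared (66.9%). With 1 library left out, 0 to 319 of all genes were called there. The count of 4 between cell types became 2 with a pseudocount of 0.1 (3.51% of all genes), 0 with no filter (0.31%), 7 with TPM (4.34%), 1 with quantile normalization (2.6%), 1 with a trended and robust eBayes (3.28%), 8 with only the groups compared (12.7%) and 1 with 4 conditions averaged (0.639%). Without granulosa Aged + LRP1high replicate 2 it was 0 (1.45% of all genes) and without oocyte Aged + LRP1high replicate 1 it was 1 (1.94%). Aged + LRP1low against Aged oocytes gave 1 with no filter (21.8% of all genes), 1 with TPM (18.3%) and 1 with quantile normalization (0.814%). Settings that drop libraries or genes change what is tested, and for the other settings the cause was not tested.

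With the replicate number as a block, the count for Aged + LRP1high against Aged + LRP1low was 0 and that between cell types 5, and no other count moved by over 1.5 times. For libraries with the same number, correlations of their deviations from the group mean ran from -0.436 to 0.441 over 21 oocyte pairs and from -0.0761 to 0.256 over 6 granulosa cell pairs. In a group of 2 libraries the deviations mirror each other, so these values cannot decide whether equal numbers mark pairs. The sources do not call them pairs, and the numbers were not taken as such. The settings without the libraries with few oocyte markers were added after the data were seen. Above the 99th percentile of the vomeronasal receptor genes, or at an FPKM of 1 or more, 26 of 42 counts of detected members stayed within 1.5 times. Depth is known only as aligned sequence, and a member at or under the level of the vomeronasal receptor genes in a library cannot be told there from an absent one.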

Other observations

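Oocyte Aged + LRP1high replicate 3 stood apart from the other libraries of its group for a handful of members. It had an FPKM of 95.5 for Usp3, 96.8 for Usp37, 75.5 for Usp42, 60.6 for Usp1, 42.7 for Usp47 and 33.9 for Usp26, each the highest value of that gene among the 12 oocyte libraries. Its median over all members was 0.312, against 9.76 and 2.94 in replicates 1 and 2 of its group. Genes at an FPKM of 1 or more numbered 4525, against 11026 and 8071. Usp50 was listed at 0 in both Aged + Unsorted oocyte libraries and was at 46.8 in the Aged + Unsorted granulosa cell library, whose oocyte markers were high. These genes were picked after their values were seen.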
